A study of Homo sapiens with 12 samples.

Results

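The genes described here are 42 genes of DNA repair, the Fanconi pathway and the damage checkpoint, chosen by name. They and the lists used below were chosen with earlier results of these data known. The cell line was PANC-1, from a human pancreatic ductal adenocarcinoma. Of the 42 listed genes, 39 had a probe annotated with their symbol (72 probes), among 20046 genes with a probe in all, and 34 were detected, among 12451 detected genes. Another 3 listed genes had no probe in the annotation used and were not analysed here. The 5 genes with probes but no detected one were ATR, BRIP1, FANCF, RAD50 and XRCC4. Their 7 probes reached at most 157 units of intensity on any array and lay above background, 128 units, on at most 2 of the 12 arrays. No statement about a change is made for them.

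All samples were PANC-1 cells stably expressing E47 in a form that tamoxifen activates. E47 is an E protein, made from the TCF3 gene, that binds DNA as a basic helix-loop-helix dimer. The groups were 4 untreated samples, 4 samples given 1 µM tamoxifen and 4 samples given 4 µM tamoxifen, both doses for 48 h, with total RNA hybridised to Illumina bead arrays. All 3 groups carried the inducible E47, so no group shows tamoxifen without it, and no vehicle is named for the untreated samples. The labels do not say whether the cells were a single clone, which promoter drove E47, or whether the 4 replicates were separate cultures. The p-values therefore rest on the spread among these samples alone, which could be technical, and 4 arrays a group limit the precision of every value. A single TCF3 probe averaged 297 ± 33.5 units at 4 µM and 780.0 ± 82.5 units in untreated cells (SD, n = 4 each), and whether it reads the introduced copy is not given in the sources used here. Arrays correlated at 0.991 or more within a group and at 0.958 at most between an untreated and a treated array, across 18454 features on the log2 scale. Detected markers were 6 of 6 for epithelium, 0 of 3 for endothelium, 2 of 5 for immune cells (CD14 and CD68, with PTPRC and CD3E not detected) and 5 of 5 for fibroblasts. Of the fibroblast markers, COL1A2 and DCN lay near background, 128 units. They averaged 126 ± 19.2 and 132 ± 13.5 units at 4 µM, and 126 ± 8.08 and 128 ± 16.1 units in untreated cells. COL3A1 and LUM were above background on 4 of 4 arrays at each dose and on 0 of 4 untreated arrays.

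DNA double-strand breaks are repaired either by homologous recombination, which copies an intact sister molecule and works in cells that have replicated their DNA, or by end joining, which reseals the ends at any stage of the cell cycle. The Fanconi pathway unhooks crosslinks between DNA strands, and mismatch and base excision repair correct replication errors and damaged bases. Checkpoint kinases hold the cell cycle while repair proceeds, and many recombination and Fanconi genes are transcribed most strongly as cells enter DNA replication.

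Most of these genes fell in tamoxifen-treated cells. At 4 µM, 27 of the 34 detected genes were lower than in untreated cells, 2 were higher (XRCC2 and MSH3) and 5 were not called. With the mean of a gene's detected probes in place of the brightest, 0 genes were higher at 4 µM and 0 at 1 µM. The genes counted as lower here and at 1 µM include FANCC, which was detected largely through its untreated arrays. A gene was called when its adjusted p, from limma with Benjamini-Hochberg adjustment over all 18454 features, was below 0.05. Among all features the same test called 20.9% lower and 21.2% higher at 4 µM. In all 27 of the genes that fell, every 4 µM array lay below every untreated array. Of the 3850 features called lower, 3239 showed the same separation (17.6% of all features), so it mostly goes with the call. The log2 fold changes of those 27 ran from -0.29 to -2.23, and 14 of them were at least 2-fold. The median log2 fold change of the 34 genes was -0.83, against -0.03 for all features.

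At 1 µM, likewise, 27 genes fell, 2 rose (again XRCC2 and MSH3) and 5 were not called, where 20.9% of all features were lower and 19.4% higher. In 25 of the 27 every 1 µM array lay below every untreated array. The same held for 3065 of the 3862 features called lower (16.6% of all features). The median log2 fold change was -0.71 at 1 µM, against -0.03 for all features. Both comparisons use the same 4 untreated arrays, so their counts are not separate evidence. Compared directly, 4 µM was lower than 1 µM for 8 genes, higher for 2 and not called for 24, with 4.76% of all features lower and 4.83% higher in that test. The 24 differences that were not called ran from -0.34 to 0.16 on the log2 scale.

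**Figure D1:**
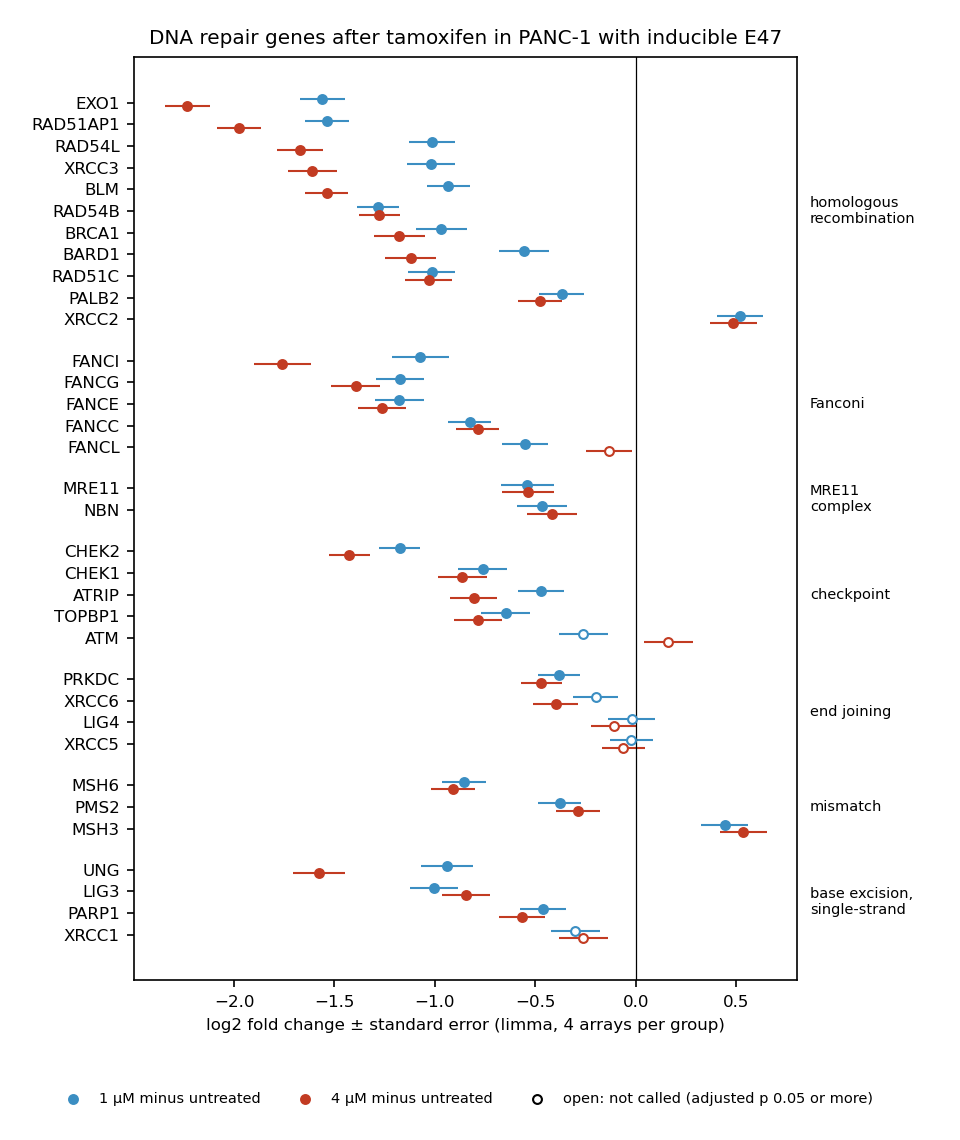
Log2 fold change of each detected repair gene against untreated cells, in 1 µM (blue) and 4 µM (red) tamoxifen, with standard errors from limma (4 arrays per group) and open points for genes not called. Each gene is shown by its brightest detected probe. Genes run from EXO1 at -2.23 to MSH3 at 0.53 at 4 µM, and most recombination and Fanconi genes lie farther left than the end-joining genes.

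**Figure D2:**
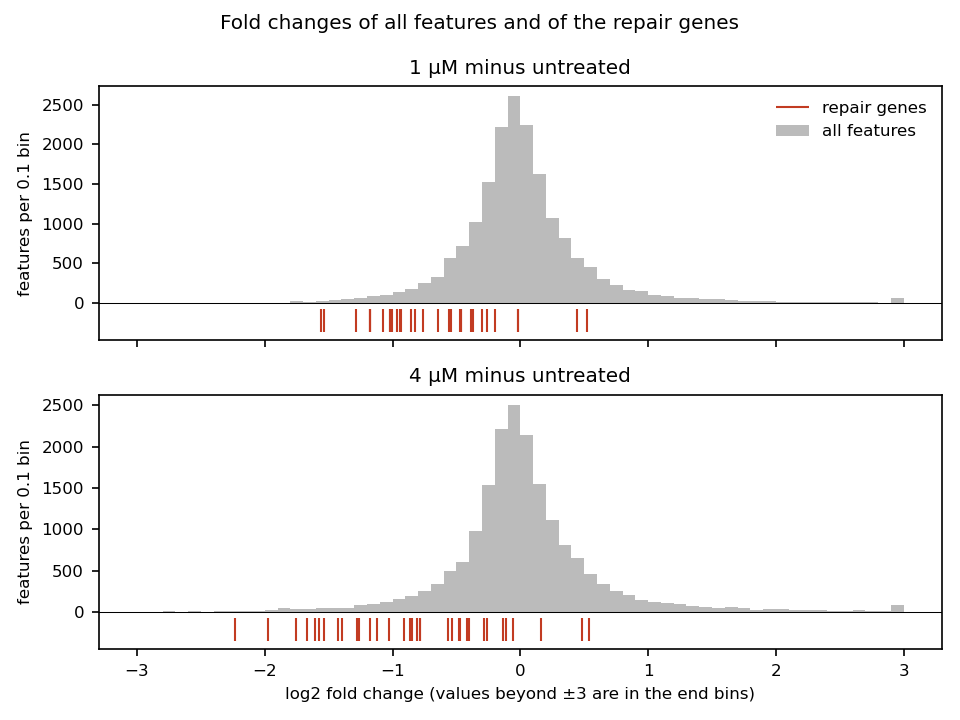
Histograms of the log2 fold changes of all 18454 features in bins of 0.1, at 1 µM (top) and 4 µM (bottom) against untreated cells, with a red tick under the axis for each of the 34 detected repair genes. The histograms centre near 0, while the ticks spread to the left, with a median of -0.71 at 1 µM and -0.83 at 4 µM.

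Other transcripts moved with these genes. A list of 15 genes of DNA replication and S phase, among them the MCM helicase subunits, was lower for 15 of 15 genes at both doses. The 15 include CDC6, which was detected through its untreated arrays alone. It was above background on 4 of 4 untreated arrays and on 0 of 4 arrays at each dose. Of all features, 20.9% were lower at each dose. The list had a median log2 fold change of -1.19 at 1 µM and -1.71 at 4 µM. Between doses, 12 of the 15 were lower at 4 µM than at 1 µM, against 4.76% of all features. The fibroblast marker list summed to 559 to 624 units over untreated arrays, 857 to 971 units over 1 µM arrays and 1109 to 1199 units over 4 µM arrays. The untreated sum was close to background, with COL3A1 and LUM above it on 0 of 4 untreated arrays, and COL1A1 moved most, averaging 558 ± 44.4 units at 4 µM and 148 ± 21.4 units in untreated cells, while COL1A2 and DCN were not called at either dose. Over the same groups the epithelial list summed to 39011 to 47168 units, 65781 to 78495 units and 61962 to 75468 units. KRT8 and KRT19 made up most of that sum, and CDH1, the adhesion protein E-cadherin, went the other way, with 540 ± 44.8 units at 4 µM and 1288 ± 163 units in untreated cells (log2 -1.27 at 4 µM, adjusted p = 2.42e-11, and -1.13 at 1 µM). The immune list summed to 4300.5 to 4504 units in untreated cells, 1688 to 2292 units at 1 µM and 1780.5 to 2124 units at 4 µM. CD68 made up most of that sum, with 4080 ± 83.3 units in untreated cells and 1745 ± 175 units at 4 µM. CD14 had 307 ± 26.4 and 153 ± 18.8 units. The part of the replication genes and of these markers in the repair genes' change was not tested. In bulk RNA, fewer cells of a kind and less RNA per cell cannot be told apart, and since the arrays had been given 1 common distribution, every change is relative to the rest of the transcripts.

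Among the genes of homologous recombination, 10 of 11 detected genes fell at 4 µM and XRCC2 rose, with a median log2 fold change of -1.28. The genes that fell were 90.9% of these, against 20.9% of all features. The genes with the largest falls act at different steps of the pathway. EXO1, an exonuclease that trims broken ends into single strands, had 1469, 1626, 1565 and 1331 units in untreated cells, 509.5, 589, 473 and 495 units at 1 µM, and 290.0, 377, 329.7 and 319.8 units at 4 µM. The groups did not overlap and stepped down with dose. EXO1 changed by -1.56 ± 0.11 at 1 µM (log2, SE, adjusted p = 1.35e-13) and by -2.23 ± 0.11 at 4 µM (adjusted p = 6.65e-18), and was 4.70 times lower at 4 µM than in untreated cells. Ranked over all features from the lowest log2 fold change at 4 µM, EXO1 stood at 41 of 18454.

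RAD51AP1, an accessory protein of the strand exchange step, had 1456, 1394, 1758 and 1484 units in untreated cells, 557, 545, 526 and 497 units at 1 µM, and 354, 397, 403 and 433 units at 4 µM. All 3 groups were separate, and the 4 µM arrays were 3.93 times lower than the untreated ones on the fitted scale (log2 -1.98 ± 0.11, adjusted p = 6.96e-17). RAD54L, a DNA translocase that helps the recombinase filament search for and invade the sister molecule, had 893, 892, 728 and 802 units in untreated cells, 378, 479, 399 and 412 units at 1 µM, and 279.5, 266, 232 and 298 units at 4 µM. It was 3.19 times lower at 4 µM than in untreated cells (log2 -1.67 ± 0.11, adjusted p = 1.89e-14), and again no array of 1 group reached another group.

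Start regions of these 3 genes are shown beside those of LIG4, FANCL and ATM, which changed little at 4 µM, so that the letters around the start of transcription can be compared. Each window runs from 250 bases before to 50 bases after the start in RefSeq on GRCh38.p14 and is printed along the gene's own strand, in lower case with motif matches in capitals. EXO1 lies at chr1:241847954-241848253 (plus strand), RAD51AP1 at chr12:4538640-4538939 (plus), RAD54L at chr1:46247438-46247737 (plus), LIG4 at chr13:108218300-108218599 (minus), FANCL at chr2:58241276-58241575 (minus) and ATM at chr11:108222817-108223116 (plus). The start used lies 218 bases inside the outermost edge of the gene for EXO1, differs from that edge for FANCL (offset -55) and coincides with it for the other 4.
EXO1: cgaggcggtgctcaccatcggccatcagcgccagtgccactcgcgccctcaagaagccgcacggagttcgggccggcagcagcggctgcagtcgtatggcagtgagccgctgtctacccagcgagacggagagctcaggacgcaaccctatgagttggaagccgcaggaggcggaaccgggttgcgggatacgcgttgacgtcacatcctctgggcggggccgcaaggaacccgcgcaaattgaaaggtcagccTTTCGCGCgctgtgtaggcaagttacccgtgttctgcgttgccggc
RAD51AP1: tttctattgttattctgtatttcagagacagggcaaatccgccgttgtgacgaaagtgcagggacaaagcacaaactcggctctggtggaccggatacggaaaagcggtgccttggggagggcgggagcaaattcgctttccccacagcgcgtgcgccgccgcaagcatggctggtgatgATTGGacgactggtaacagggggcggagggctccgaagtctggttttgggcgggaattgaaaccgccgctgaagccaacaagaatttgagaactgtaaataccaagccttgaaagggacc
RAD54L: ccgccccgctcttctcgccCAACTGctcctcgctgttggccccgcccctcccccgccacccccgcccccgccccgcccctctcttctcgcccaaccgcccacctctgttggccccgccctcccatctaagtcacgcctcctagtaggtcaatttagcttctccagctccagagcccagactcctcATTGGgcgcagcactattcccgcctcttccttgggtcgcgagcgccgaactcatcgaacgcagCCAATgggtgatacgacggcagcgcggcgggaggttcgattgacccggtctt
LIG4: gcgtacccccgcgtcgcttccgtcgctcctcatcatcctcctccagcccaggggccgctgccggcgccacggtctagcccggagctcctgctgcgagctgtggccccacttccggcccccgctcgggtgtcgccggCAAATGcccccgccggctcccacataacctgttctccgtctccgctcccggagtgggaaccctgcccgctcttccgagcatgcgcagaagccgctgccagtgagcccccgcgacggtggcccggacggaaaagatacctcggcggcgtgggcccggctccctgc
FANCL: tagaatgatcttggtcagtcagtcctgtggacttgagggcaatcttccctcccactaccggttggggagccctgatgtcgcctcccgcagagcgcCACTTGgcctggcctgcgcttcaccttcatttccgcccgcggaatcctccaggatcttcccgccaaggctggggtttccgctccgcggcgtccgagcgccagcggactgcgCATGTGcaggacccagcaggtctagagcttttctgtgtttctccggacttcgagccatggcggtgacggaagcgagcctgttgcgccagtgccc
ATM: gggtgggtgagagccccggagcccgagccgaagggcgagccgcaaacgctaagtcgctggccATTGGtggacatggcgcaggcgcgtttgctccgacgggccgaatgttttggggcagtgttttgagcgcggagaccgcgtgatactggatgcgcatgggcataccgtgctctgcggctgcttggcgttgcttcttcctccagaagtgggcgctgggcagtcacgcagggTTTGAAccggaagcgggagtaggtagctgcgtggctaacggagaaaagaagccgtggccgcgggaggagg

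Capitals mark, on either strand, the E-box CANNTG that basic helix-loop-helix proteins bind, the CCAAT box, the E2F forms TTTGGCGC, TTTCCCGC, TTTGGCGG and TTTCGCGC, and the cell cycle element TTTGAA. The EXO1 window held 1 E2F form, beginning at base 5 of the transcript, and no E-box. RAD51AP1 held 1 CCAAT box read on the other strand, 70 bases before the start. RAD54L held 1 E-box, 231 bases before the start, and 2 CCAAT boxes. LIG4 held 1 E-box, FANCL held 2, and ATM held 1 CCAAT box and 1 TTTGAA. None of the 6 windows held CAGGTG or its reverse complement CACCTG, the E-box form that E47 prefers.

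Windows were found for 29 of the 34 detected genes, and the shares describe those. An E-box stood in 62.1% of the 29 windows and in 68.9% of the first-listed windows of 27305 genes, and the CAGGTG or CACCTG form in 13.8% and 20.6%. A CCAAT box stood in 51.7% of the repair gene windows and in 35.7% of all windows, and an E2F form in 24.1% and 3.43%. Among the 12 windows of genes that were at least 2-fold lower at 4 µM, 1 held an E2F form (8.33%) and 7 held an E-box. TTTGAA stood in 10.3% of the repair gene windows and in 15.4% of all windows. A match describes the letters only, and no binding was measured.

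XRCC3, which acts in a complex with RAD51C late in recombination, had 590.3, 663, 604 and 669 units in untreated cells, 301, 428, 279.5 and 283 units at 1 µM, and 227, 203, 221 and 209 units at 4 µM. No array overlapped another group, although 1 µM replicate 2 stood above the other 1 µM arrays. BLM, a RecQ helicase that dissolves crossed-over intermediates, had 508, 527, 610.2 and 627 units in untreated cells, 304, 332, 279 and 297 units at 1 µM, and 205, 197, 207 and 203 units at 4 µM. At 4 µM XRCC3 was 3.05 times lower than in untreated cells (log2 -1.61 ± 0.12, adjusted p = 2.43e-13) and BLM 2.91 times lower (log2 -1.54 ± 0.11, adjusted p = 3.58e-14). In the direct test between doses, XRCC3 was lower at 4 µM by 0.59 on the log2 scale (-0.59, adjusted p = 0.0013) and BLM likewise (-0.61, adjusted p = 0.000225).

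BRCA1 and BARD1 form the ubiquitin ligase that steers breaks toward recombination. BRCA1 had 480.1, 477, 400.4 and 328 units in untreated cells, 225, 219.9, 211 and 221 units at 1 µM, and 164, 177, 237 and 194 units at 4 µM. Both doses lay below all untreated arrays and overlapped each other, with log2 fold changes of -0.97 ± 0.13 at 1 µM (adjusted p = 9.8e-08) and -1.18 ± 0.13 at 4 µM (adjusted p = 1.27e-09). BARD1 had 729.5, 665, 819 and 602 units in untreated cells, 389, 598, 496 and 459 units at 1 µM, and 286, 332, 338 and 364 units at 4 µM. Its 1 µM array replicate 2 came within a few units of the lowest untreated array, and its 4 µM arrays were below all others (log2 -0.56 at 1 µM and -1.12 at 4 µM, both called). The difference of BARD1 between doses was -0.56 (log2, adjusted p = 0.00309), whereas that of BRCA1 was -0.21, with a 95% interval of -0.47 to 0.05 (adjusted p = 0.345).

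Another pair of recombination genes dropped to about the same level at both doses. RAD54B, another translocase, related to RAD54L, averaged 675 ± 30.5 units in untreated cells, 285 ± 10.97 units at 1 µM and 287 ± 20.7 units at 4 µM (SD, n = 4 each), with log2 fold changes of -1.28 at each dose. RAD51C, which belongs to both complexes of its family, averaged 869 ± 131 units in untreated cells, 435 ± 58.1 units at 1 µM and 428 ± 10.8 units at 4 µM. The 4 µM minus 1 µM differences were 0.01 for RAD54B (95% interval -0.20 to 0.22) and -0.02 for RAD51C (-0.26 to 0.23). PALB2, which links the BRCA1 complex to the recombinase loader, fell less, by 0.37 on the log2 scale at 1 µM (adjusted p = 0.00778), where its arrays overlapped the untreated ones, and by 0.48 at 4 µM (adjusted p = 0.000666), where they did not.

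XRCC2, a small subunit of the other complex that holds RAD51C, moved the other way. It had 617, 586, 682 and 611 units in untreated cells, 1014, 708, 1007 and 858 units at 1 µM, and 915, 819, 923 and 818 units at 4 µM. Every treated array lay above every untreated array, and the doses overlapped (log2 0.52 ± 0.12 at 1 µM, adjusted p = 0.000434, and 0.49 ± 0.12 at 4 µM, adjusted p = 0.000834). A second detected XRCC2 probe did not show the rise: its log2 fold change was -0.11 ± 0.12 at 4 µM and -0.26 ± 0.12 at 1 µM, neither called. With the mean of the detected probes in place of the brightest, XRCC2 was 0.19 at 4 µM (adjusted p = 0.103) and 0.13 at 1 µM (adjusted p = 0.275). The rise of XRCC2 thus rests on the brighter probe alone.

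**Figure D3:**
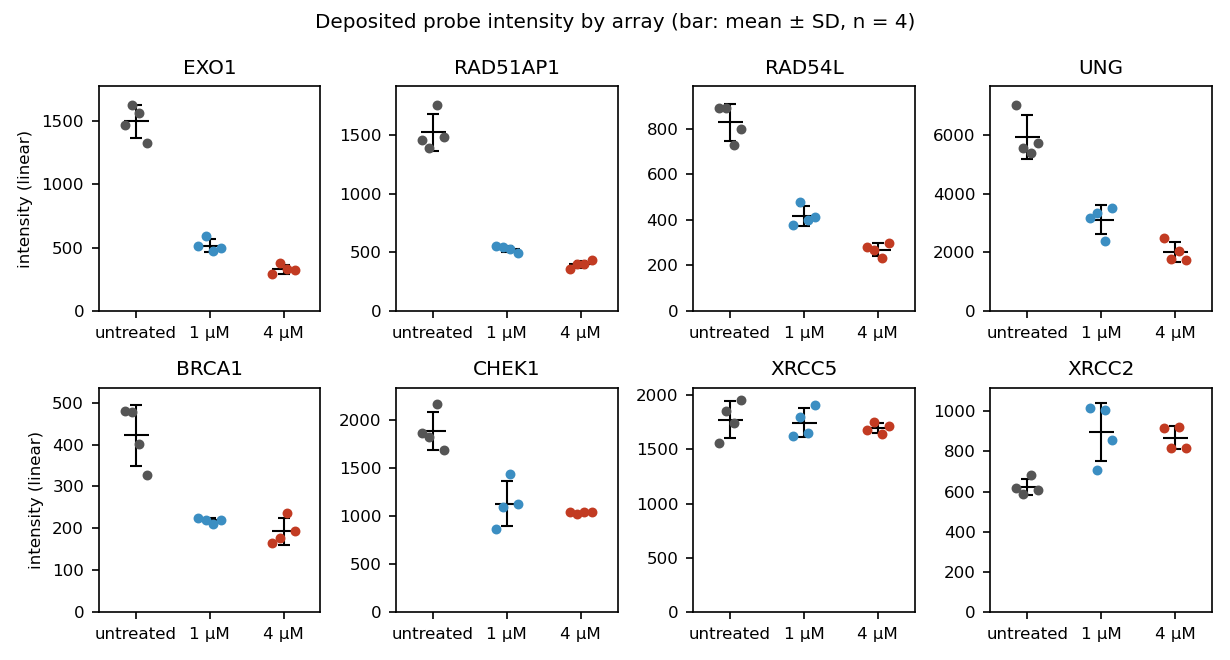
Deposited intensity of the representative probe on each array for 8 repair genes, on linear axes from 0, with untreated cells, 1 µM and 4 µM tamoxifen from left to right and bars for the mean and SD (n = 4). EXO1, RAD51AP1, RAD54L and UNG step down with dose, BRCA1 and CHEK1 fall to a similar level at both doses, XRCC5 overlaps in all groups and XRCC2 is higher in all treated arrays.

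Among the Fanconi genes, 4 of 5 detected genes fell at 4 µM and 5 of 5 at 1 µM, with median log2 fold changes of -1.26 and -1.07. Of all features, 20.9% were lower at each dose. These counts include FANCC, whose treated arrays lay close to background. FANCI, part of the clamp that the pathway marks with ubiquitin, had 1179.6, 912, 1252 and 916 units in untreated cells, 615, 624, 388 and 447 units at 1 µM, and 328, 259.9, 353 and 349 units at 4 µM. The groups were separate, although the 1 µM arrays fell into a higher and a lower pair. FANCI changed by -1.07 ± 0.14 at 1 µM and -1.76 ± 0.14 at 4 µM (log2, adjusted p = 1.33e-07 and 1.49e-12), and the doses differed by -0.69 (adjusted p = 0.00144).

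The other Fanconi genes encode subunits of the core complex that adds that mark. FANCG averaged 1387 ± 229.7 units in untreated cells, 621 ± 90.5 units at 1 µM and 530.5 ± 14.8 units at 4 µM (SD, n = 4 each). FANCE averaged 775 ± 57.8 units in untreated cells, 354 ± 63.1 units at 1 µM and 329.8 ± 9.99 units at 4 µM. Both were lower on every treated array, by 1.39 (FANCG) and 1.26 (FANCE) on the log2 scale at 4 µM (log2 fold changes -1.39 and -1.26, adjusted p = 9.17e-12 and 7.95e-11). FANCC, another subunit, had 207, 224, 233 and 179.7 units in untreated cells, 125, 123, 129.8 and 118 units at 1 µM, and 119.8, 127, 135 and 127 units at 4 µM. Only 1 of 4 arrays at each dose was above the background threshold of 128 units, so its fold changes of -0.83 at 1 µM and -0.79 at 4 µM (log2) compare a measured level with one close to background, and the gene was detected largely through its untreated arrays.

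FANCL, the ubiquitin ligase subunit of the core complex, differed between the doses. It had 1306, 1194, 1065 and 1358 units in untreated cells, 952, 733, 786 and 908 units at 1 µM, and 1138, 1012, 1222 and 1109 units at 4 µM. The 1 µM arrays lay below all others, and the 4 µM arrays overlapped the untreated ones. FANCL was lower at 1 µM (log2 -0.55 ± 0.11, adjusted p = 0.000173), was not called at 4 µM (-0.13, 95% interval -0.37 to 0.10) and was higher at 4 µM than at 1 µM by 0.42 (adjusted p = 0.0163). That last call was lost without 1 µM replicate 2 (0.35, adjusted p = 0.0707) or without 4 µM replicate 3 (0.37, adjusted p = 0.0682).

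MRE11 and NBN, the nuclease and the adaptor of the complex that first binds broken ends, fell moderately. MRE11 had 789, 592, 731 and 905 units in untreated cells, 510.0, 664, 445 and 474 units at 1 µM, and 549, 448, 539.9 and 539 units at 4 µM. The 4 µM arrays lay below all untreated arrays, while 1 array at 1 µM reached into their range (log2 -0.54 ± 0.13 at each dose, adjusted p = 0.001 at 1 µM and 0.000949 at 4 µM). A second MRE11 probe was lower at 1 µM (-0.32, adjusted p = 0.0429) and not called at 4 µM (-0.29, adjusted p = 0.0674). The third was not called at 1 µM (-0.19, adjusted p = 0.176) and lower at 4 µM (-0.35, adjusted p = 0.0117). The mean of the detected MRE11 probes gave -0.35 at 1 µM, still called. NBN had 1839, 1583, 1633 and 2190.4 units in untreated cells, 1202, 1084, 1409.6 and 1579 units at 1 µM, and 1542, 1266, 1238 and 1371 units at 4 µM. All treated NBN arrays were lower than all untreated ones, if narrowly (log2 -0.47 at 1 µM, adjusted p = 0.00283, and -0.42 at 4 µM, adjusted p = 0.00685). A second NBN probe was not called at either dose (-0.04 ± 0.12 at 4 µM and -0.25 ± 0.12 at 1 µM), and the mean of both probes gave -0.23 at 4 µM (adjusted p = 0.0797).

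Of the checkpoint genes, 4 of 5 detected genes fell at both doses, against 20.9% of all features at each dose. CHEK2, an effector kinase downstream of ATM, had 723, 638, 726 and 756 units in untreated cells, 319, 313, 329 and 323 units at 1 µM, and 281, 266, 284 and 258 units at 4 µM. Its replicates lay close together and the groups did not overlap, with log2 fold changes of -1.18 ± 0.10 at 1 µM and -1.43 ± 0.10 at 4 µM (adjusted p = 1.73e-11 and 9.49e-14), though the difference between doses was not called (-0.25, 95% interval -0.46 to -0.04, adjusted p = 0.133). A second CHEK2 probe was called lower at 4 µM than at 1 µM (-0.37, adjusted p = 0.0295), as was the mean of the probes (-0.31, adjusted p = 0.0389). CHEK1, the effector kinase of the replication checkpoint, had 1863, 1816, 2157 and 1689 units in untreated cells, 863, 1093, 1435 and 1121 units at 1 µM, and 1043, 1023, 1039 and 1038 units at 4 µM. The 4 µM arrays were nearly equal, and the 1 µM arrays spread around them, all below the untreated arrays (log2 -0.76 at 1 µM and -0.86 at 4 µM, adjusted p = 4.42e-06 and 4.24e-07).

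The partners that switch on the replication checkpoint moved with them. ATRIP, the partner of the ATR kinase, averaged 698 ± 73.8 units in untreated cells, 506 ± 50.1 units at 1 µM and 405 ± 53.5 units at 4 µM (SD, n = 4 each). TOPBP1, which activates that kinase, averaged 2713 ± 279 units in untreated cells, 1752 ± 335 units at 1 µM and 1575 ± 56.9 units at 4 µM. Both were lower on every treated array at each dose, by 0.81 (ATRIP) and 0.78 (TOPBP1) on the log2 scale at 4 µM (log2 fold changes -0.81 and -0.78, adjusted p = 5.84e-07 and 1.59e-06).

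ATM, the kinase that responds to double-strand breaks, was not called against untreated cells at either dose. It had 987, 1088, 1118 and 915 units in untreated cells, 1048, 673, 938 and 815 units at 1 µM, and 1024, 1259.8, 1148 and 1157 units at 4 µM. The groups overlapped, with log2 fold changes of -0.26 at 1 µM (95% interval -0.51 to -0.01, adjusted p = 0.0897) and 0.16 at 4 µM (-0.09 to 0.41, adjusted p = 0.313). ATM was higher at 4 µM than at 1 µM by 0.42 on the log2 scale (adjusted p = 0.0237). A second ATM probe gave 0.12 (adjusted p = 0.712), and the mean of both gave 0.27 (adjusted p = 0.252), so the call depends on the probe. Without 1 µM replicate 2, the lowest array, that difference was 0.30 (adjusted p = 0.132), and it also lost its call without 4 µM replicate 2, 3 or 4 or without 1 µM replicate 4 (0.38 to 0.42, adjusted p from 0.058 to 0.0937). Without 1 µM replicate 1, ATM was lower at 1 µM than in untreated cells (-0.36, adjusted p = 0.0232).

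**Figure D4:**
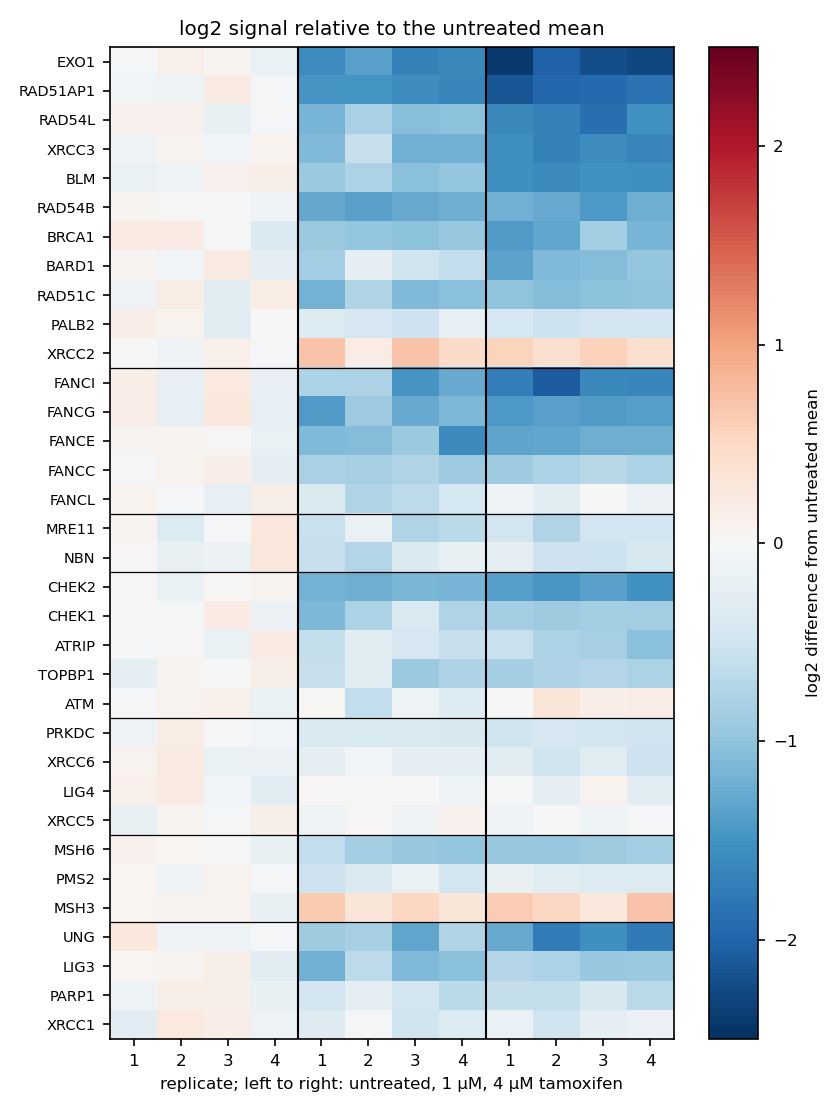
Log2 signal of each detected repair gene (rows, in role groups divided by lines) on each of the 12 arrays (columns, replicates 1 to 4 of untreated cells, 1 µM and 4 µM tamoxifen), relative to the gene's mean over untreated arrays, blue for lower and red for higher. The darkest rows, such as EXO1, RAD51AP1 and FANCI, are blue on all 8 treated arrays, PALB2 and PRKDC are faintly blue, and XRCC5 and LIG4 stay pale. XRCC2 and MSH3, each shown by its brightest probe alone, are red.

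Of the end-joining genes, 2 of 4 detected genes were lower at 4 µM and 1 of 4 at 1 µM. That is 50% and 25%, against 20.9% of all features at each dose, so the 1 µM share was near that of all features. The median log2 fold change was -0.25 at 4 µM. XRCC5 and XRCC6 encode the Ku ring that loads onto broken ends. XRCC5 had 1555, 1852, 1741 and 1951 units in untreated cells, 1625, 1798, 1654 and 1905 units at 1 µM, and 1675, 1749, 1644 and 1716 units at 4 µM. Its groups overlapped throughout, and the 95% interval at 4 µM was -0.28 to 0.16 around -0.06 (log2). XRCC6 had 7381, 8046, 6156 and 6295 units in untreated cells, 5904, 6619.6, 5813 and 5850.4 units at 1 µM, and 5747, 4925, 5593 and 4832 units at 4 µM. XRCC6 was lower at 4 µM on every array (-0.40 ± 0.11, adjusted p = 0.00402) and overlapped at 1 µM (-0.20, 95% interval -0.43 to 0.03). A second XRCC6 probe was called lower at 1 µM (-0.28, adjusted p = 0.0422), as was the mean of both (-0.24, adjusted p = 0.0404). The call of XRCC6 at 1 µM thus depends on the probe. PRKDC, the catalytic subunit of the DNA-dependent kinase that Ku recruits, averaged 1834 ± 180.1 units in untreated cells, 1404 ± 9.70 units at 1 µM and 1324 ± 33.3 units at 4 µM, lower on every treated array (log2 -0.38 and -0.47, adjusted p = 0.00315 and 0.000355). LIG4, the ligase that seals the joined ends, averaged 209 ± 29.4 units in untreated cells, 204 ± 9.45 units at 1 µM and 194 ± 20.3 units at 4 µM, and its 95% interval at 4 µM was -0.35 to 0.13 (log2).

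The mismatch repair genes divided. MSH6, which recognises base mismatches, had 4152, 4009.7, 3898 and 3388 units in untreated cells, 2507, 2139, 1997 and 1952 units at 1 µM, and 2006, 2011, 2078 and 2137 units at 4 µM. It was lower on every treated array (log2 -0.85 ± 0.11 at 1 µM and -0.91 ± 0.11 at 4 µM, adjusted p = 7.01e-08 and 1.56e-08). PMS2, an endonuclease of the next step, had 861, 787, 888 and 801 units in untreated cells, 588, 654, 746 and 599 units at 1 µM, and 735, 679, 664 and 664 units at 4 µM. PMS2 was lower at both doses, but its change at 4 µM was small (-0.29 ± 0.11, adjusted p = 0.0303), and the call was lost without untreated replicate 1 or 3 or 4 µM replicate 2, 3 or 4, with adjusted p from 0.0612 to 0.0851. The other detected PMS2 probes, 2 in number, were not called at either dose.

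MSH3, which recognises small loops, had 14898, 15134, 15401 and 12662 units in untreated cells, 22735, 17763, 20765 and 17908 units at 1 µM, and 22558, 20765, 17455 and 23664 units at 4 µM. By this probe every treated array was above every untreated array (log2 0.44 ± 0.12 at 1 µM and 0.53 ± 0.12 at 4 µM, adjusted p = 0.00243 and 0.000305). A second detected MSH3 probe had 708, 793, 766 and 684 units in untreated cells, 607, 622, 496 and 573 units at 1 µM, and 601, 633, 640.4 and 575 units at 4 µM. By that probe every treated array was below every untreated one, and it was called lower in a fit with each probe as its own feature (-0.37 ± 0.11 at 1 µM and -0.27 ± 0.11 at 4 µM, adjusted p = 0.00574 and 0.0402). The probes of MSH3 thus gave opposite directions, and their mean was not called (0.04 at 1 µM and 0.13 at 4 µM, adjusted p = 0.795 and 0.282).

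In base excision and single-strand repair, 3 of 4 detected genes fell at both doses, against 20.9% of all features at each dose. UNG, the glycosylase that removes uracil from DNA, had 7056, 5567, 5398 and 5735 units in untreated cells, 3188, 3342, 2393 and 3533 units at 1 µM, and 2479.7, 1777, 2039 and 1742 units at 4 µM. Both doses lay below all untreated arrays, and 1 array at 4 µM reached into the 1 µM range (log2 -0.94 ± 0.13 at 1 µM and -1.58 ± 0.13 at 4 µM, adjusted p = 2.58e-07 and 2.15e-12, and -0.63 between doses, adjusted p = 0.00121). A second UNG probe was also called lower, with no 4 µM array above background, against 206, 204, 199 and 198 units in untreated cells. That probe was detected largely through its untreated arrays, since 1 of 4 arrays at 1 µM was above background. The third detected UNG probe, with 147, 166, 169.9 and 157 units at 4 µM and 139, 127, 156.5 and 197 units in untreated cells, was not called (0.07 ± 0.13). The mean of the 3 probes gave smaller falls of UNG, -0.59 at 1 µM and -0.96 at 4 µM, both called.

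PARP1, the sensor of DNA nicks, averaged 5554 ± 657 units in untreated cells, 4039 ± 506 units at 1 µM and 3743 ± 311 units at 4 µM (SD, n = 4 each), and was lower on every treated array (log2 -0.46 and -0.57, adjusted p = 0.00144 and 0.000122). LIG3, the ligase that closes such nicks, averaged 607 ± 68.5 units in untreated cells, 310.4 ± 53.3 units at 1 µM and 342 ± 24.5 units at 4 µM, also without overlap (log2 -1.005 and -0.85, adjusted p = 1.77e-08 and 4.13e-07). A second LIG3 probe was not called at 1 µM (-0.21, adjusted p = 0.158) and was lower at 4 µM (-0.37, adjusted p = 0.00813), and the mean of both moved the 1 µM value to -0.61. XRCC1, the scaffold that LIG3 binds, averaged 534 ± 87.8 units in untreated cells, 434 ± 53.9 units at 1 µM and 445 ± 45.8 units at 4 µM, with overlapping arrays. Its log2 fold changes of -0.30 and -0.26 were not called (adjusted p = 0.0521 and 0.0917). Without untreated replicate 1, the lowest untreated array, XRCC1 was lower at both doses (-0.40 and -0.36, adjusted p = 0.015 and 0.0272). At 1 µM it was also called without 1 µM replicate 2 (adjusted p = 0.0183) or untreated replicate 4 (adjusted p = 0.0411), with no background correction (adjusted p = 0.0481) and among features above background on all 12 arrays (adjusted p = 0.0414).

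The 34 genes had 55 detected probes, and 15 genes had more than 1. At 4 µM, 41 of the 55 probes were lower, 2 were higher and 12 were not called, in a fit with each probe as its own feature. The 41 include the FANCC probe and the second UNG probe, both detected largely through their untreated arrays. For 8 of the 15 genes (EXO1, CHEK2, BRCA1, RAD51C, LIG3, ATRIP, PRKDC and XRCC6) all detected probes were lower. A second EXO1 probe had 149, 125, 123 and 129 units at 4 µM and 495, 379.7, 426 and 486 units in untreated cells, and was called lower, although only 2 of its 4 µM arrays were above background. A second BRCA1 probe was above background on no 4 µM array, against 253, 304, 328 and 229 units in untreated cells.

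**Figure D5:**
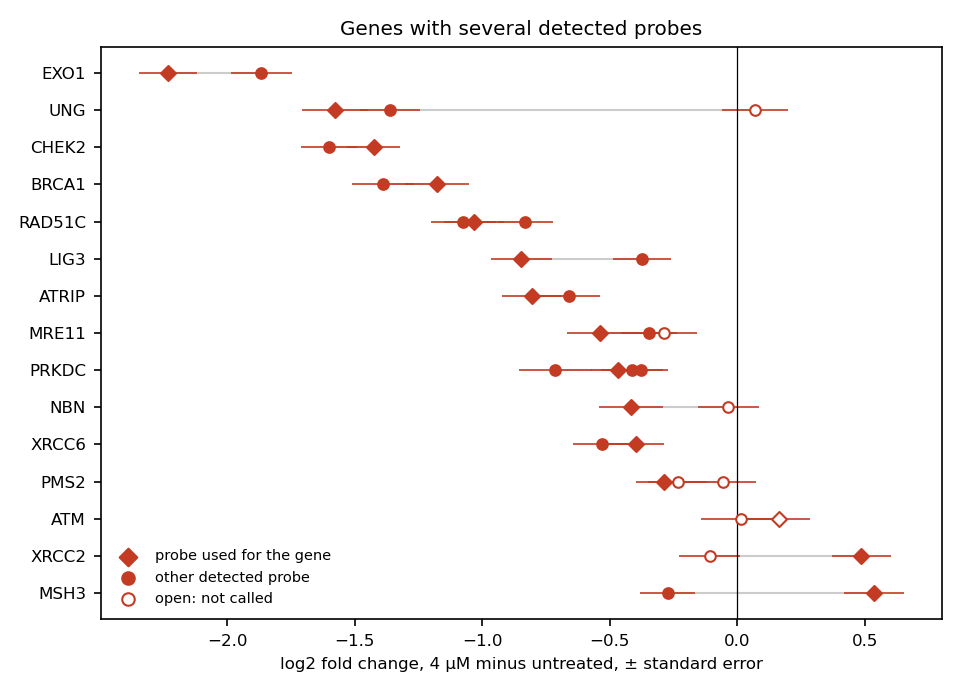
Log2 fold change at 4 µM against untreated cells, with standard errors, for each detected probe of the 15 genes with several, diamonds for the brightest probe, which stands for the gene, circles for the others and open symbols for probes not called. All probes of EXO1, CHEK2 and BRCA1 are lower, whereas UNG, NBN and XRCC2 each have a called and an uncalled probe and those of MSH3 are called in opposite directions. The second probes of BRCA1 and UNG and 1 of PMS2 were not above background on any 4 µM array.

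Further repair genes outside the 42 were counted from 8 lists of 115 genes, 106 with a probe and 98 detected. At 4 µM 48 of the 98 were lower and 12 higher, or 49.0% and 12.2%, against 20.9% and 21.2% of all features, with a median log2 fold change of -0.24. At 1 µM the counts were also 48 and 12, against 20.9% and 19.4% of all features. Between doses, 9 were lower (9.18%) and 2 higher (2.04%) at 4 µM, against 4.76% and 4.83% of all features. That count of 2 was 5 without untreated replicate 4 and 1 without 4 µM replicate 2 or 3. Further Fanconi genes were lower at 4 µM for 9 of 12 and higher for 1 (median -0.62), and further checkpoint genes were lower for 7 of 11 and higher for 0 (median -0.63). The 7 and the 48 include CLSPN, detected largely through its untreated arrays. It was above background on 4 of 4 of those, 1 of 4 at 1 µM and 0 of 4 at 4 µM. Further recombination genes were lower for 12 of 24 and higher for 2 (median -0.28), and base excision genes for 9 and 3 of 18 (median -0.25). Nucleotide excision genes, which act on bulky lesions, were lower for 4 (30.8%) and higher for 3 (23.1%) of 13 (median 0.05), against 20.9% and 21.2% of all features, further end-joining genes for 3 and 2 of 10 (median -0.14), further mismatch genes for 2 and 0 of 3, and translesion and reversal genes for 2 and 1 of 7. How far these shares differ from each other was not tested.

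From each list the called genes with the largest fall and the largest rise at 4 µM were taken. UBE2T, the ubiquitin-conjugating enzyme that works with FANCL, averaged 4176 ± 204 units in untreated cells, 1364 ± 138 units at 1 µM and 1191 ± 89.2 units at 4 µM (SD, n = 4 each, log2 -1.82 ± 0.11 at 4 µM). POLQ, the polymerase of microhomology end joining, averaged 858 ± 50.9 units in untreated cells, 329.7 ± 25.2 units at 1 µM and 253 ± 30.6 units at 4 µM (log2 -1.82 ± 0.11). The other falls, as log2 fold changes at 4 µM, were -1.78 for NEIL3, a glycosylase, -1.65 for RMI2, a partner of BLM, -1.61 for CDC25A, a phosphatase that CHEK1 restrains, and -1.25 for LIG1, the ligase of replication. Smaller falls were those of ALKBH2, which reverses base alkylation, at -0.66, and of DDB2, a sensor of ultraviolet damage, at -0.54, with 1 of 4 arrays at 4 µM above background.

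Rises in those lists were fewer. REV3L, the catalytic subunit of a translesion polymerase, averaged 286 ± 54.2 units in untreated cells, 427 ± 68.5 units at 1 µM and 543 ± 32.4 units at 4 µM (log2 0.97 ± 0.13 at 4 µM, adjusted p = 1.18e-07). POLM, an end-joining polymerase, averaged 177 ± 18.4 units in untreated cells, 281 ± 36.5 units at 1 µM and 312 ± 21.8 units at 4 µM (log2 0.87 ± 0.12 at 4 µM, adjusted p = 1.14e-07). TDG, a glycosylase for mismatched thymine, rose by 0.68 at 4 µM (adjusted p = 5.46e-06), and CETN2, a centrin of the nucleotide excision machinery, by 0.47 (adjusted p = 0.000432). BABAM2, of a BRCA1-containing complex, rose by 0.35 (adjusted p = 0.0129) and WDR48, a cofactor of the enzyme that removes the Fanconi ubiquitin mark, by 0.34 (adjusted p = 0.0107). At 4 µM the WDR48 call was lost without untreated replicate 2 (0.27, adjusted p = 0.058) and the BABAM2 call without 4 µM replicate 1 (0.28, adjusted p = 0.0649) or with the mean of its detected probes (0.22, adjusted p = 0.0873).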

How the data were processed

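The authors deposited linear probe intensities, 1 column per sample. Sorted, the 12 columns differ at no rank by over 1.65%, as after quantile normalization, and background had not been subtracted. The submitters' processing notes name GenomeStudio (version not given in the sources used here). Another table holds 24 columns whose names match no sample label, and these were not used.

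Groups and replicate numbers came from the sample titles, which give the lower dose as 1 µM where the treatment notes print a unit of volume. Probes were named through the platform annotation supplied, in which 30113 of 47323 probes had 1 gene, 8 several and 17202 none. Background was centred on the mode of the intensities, 102, with a lower-side standard deviation of 15.8. A probe above 128 units, the one-sided 95% point of that background, on at least 4 of 12 arrays was detected. The brightest detected probe stood for a gene, and unnamed probes stayed as features, giving 12451 genes and 6003 probes. Normexp on the signals alone (offset 50) and log2 followed, which shrinks the fold changes of dim probes, so fold changes are on that scale.

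limma 3.58.1 under R 4.3.3 fitted 1 mean per group to the 12 arrays together (9 residual and 24.0 prior degrees of freedom). Tests are two-sided, adjusted by Benjamini-Hochberg over all 18454 features, and called below 0.05. Values by probe come from a separate fit with every detected probe as a feature. Named genes were the detected listed genes and, from each of 8 wider lists, the called genes with the largest rise and fall at 4 µM. Windows printed were those of the 3 largest falls and the 3 smallest changes at 4 µM among genes with a window in the RefSeq promoter table (GRCh38.p14). The genes, lists and tests were chosen with earlier results of these data known. The fit was tested on simulated data. No 2 arrays were identical. The residuals showed no clear pairing of arrays by replicate number. Those of the 12 same-number pairs correlated at -0.073 to 0.156, and only 4 of 12 arrays matched their own number best. Cultures matched by number are not excluded by this, and the labels do not state any.

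Alternatives changed the offset, the background correction, the detection filter, the probe rule, the moderation, a replicate block, the groups in the fit and each array left out.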

Additional observations from a re-analysis of the deposited data

Results flagged for a closer look

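Each of the 34 detected repair genes was looked at in each of the 3 groups of 4 arrays, 102 groups in all, for an array far from the other 3 of its group. About 1 in 20 such groups would stand out by chance, and 3 did. MRE11 had 448 units in 4 µM replicate 2, below the other 4 µM arrays at 539 to 549 units. XRCC6 had 6619.6 units in 1 µM replicate 2, above the other 1 µM arrays at 5813 to 5904 units. MSH3 had 12662 units in untreated replicate 4, below the other untreated arrays at 14898 to 15401 units. MRE11 at 4 µM and MSH3 at both doses kept their calls without those arrays, and XRCC6 at 1 µM was not called with or without its array.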

How the results depend on the processing

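Over the alternatives, the number of detected repair genes called lower ran from 25 to 27 at 4 µM and from 27 to 28 at 1 µM against untreated cells, and from 8 to 9 at 4 µM against 1 µM, and no called gene changed direction. With the mean of a gene's detected probes in place of the brightest probe, the number of genes called higher was 0 at 4 µM and 0 at 1 µM, against 2 at each dose by the brightest probe. That change follows from the probes of XRCC2 and MSH3, whose own values are given with those genes. Between the doses, 2 genes were higher at 4 µM, FANCL and ATM. That number was 1 with an offset of 16 and 1 with the mean of probes, and ran from 0 to 2 when each array was left out in turn. The cause of the change with the offset was not tested. ATM was the gene lost in both, with an adjusted p of 0.0582 with the offset of 16. PMS2 at 4 µM had an adjusted p of 0.0569 with no detection filter, where more features were tested, and 0.0984 with the mean of probes. XRCC6 at 1 µM was called with the mean of probes (adjusted p = 0.0404). The count of all features called between doses was 1133 without 4 µM replicate 2, 1169 without 4 µM replicate 3 and 1172 without 1 µM replicate 4, against 1771 with all arrays. With the replicate number as a block (replicate block), 27 genes were lower and 2 higher at 4 µM, and it changed no count of called repair genes. The number of arrays, 4 in each group, and a background of 128 units limit the dim probes, such as FANCC.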
